A study of Mus musculus with 2 samples.

Results

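AMPA receptors are the tetrameric glutamate-gated cation channels built from the subunits encoded by Gria1, Gria2, Gria3 and Gria4, and TARPs are the transmembrane auxiliary subunits that travel with them, encoded here by Cacng2, Cacng3, Cacng4, Cacng5, Cacng7 and Cacng8. These 10 genes were taken by symbol from the feature tables of both matrices, and all 10 were found among the 32285 genes listed. The tissue was the thalamus of untreated wildtype C57BL/6J mice aged 2 months, 2 animals with 1 single-cell library each, and both animals form a single group. Cells were released with papain, protease and dispase, so every level below belongs to cells that survived dissociation. The question put to the data was which subunits and auxiliary subunits each neuronal and glial class carried, and in what proportions.

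AMPA receptors carry most fast excitatory transmission, and in the thalamus they mediate both the sensory and the cortical input to relay neurons. The GluA2 subunit, from Gria2, limits calcium entry through the channel because its transcript is edited at the Q/R site of the pore loop by ADAR2, the product of Adarb1, whereas receptors without GluA2 pass calcium. TARPs bring receptors to the surface and slow their gating. Stargazin (Cacng2), gamma-3 (Cacng3), gamma-4 (Cacng4) and gamma-8 (Cacng8) are the type I TARPs, and gamma-5 (Cacng5) and gamma-7 (Cacng7) are type II. Astrocytes and oligodendrocyte precursors carry AMPA receptors as well.

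The stretch around the Q/R site is shown because it is the reason why the Gria2 share is followed below: the glutamine codon in capitals is the one edited in Gria2 transcripts. The sequences are 33 bases long, read 5′ to 3′ on the strand of the gene from GENCODE vM21 transcripts (GRCm38), as encoded in the genome before editing.
Gria1: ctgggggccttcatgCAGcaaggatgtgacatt
Gria2: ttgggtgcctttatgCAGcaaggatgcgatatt
Gria3: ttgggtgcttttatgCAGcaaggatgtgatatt
Gria4: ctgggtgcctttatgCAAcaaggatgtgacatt

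The window lies in exon 11 of 16 in Gria1 (chr11:57243079-57243111, plus strand), Gria2 (chr3:80706896-80706928, minus strand) and Gria3 (chrX:41610250-41610282, plus strand), and in exon 12 of 17 in Gria4 (chr9:4464122-4464154, minus strand). Of the 33 bases, 31 were identical to Gria2 in Gria3, 29 in Gria4 and 28 in Gria1. The codon was CAG in Gria1, Gria2 and Gria3 and CAA in Gria4. The deposited counts hold no bases, so the editing state itself was not analysed here, and neither were the flip and flop splice forms. Among the auxiliary genes, Cacng4 (chr11:107732357-107794557) and Cacng5 (chr11:107874605-107915055) are neighbours on the minus strand, and Cacng7 (chr7:3332955-3368221) and Cacng8 (chr7:3390683-3415648) are neighbours on the plus strand. Measured genes on the opposite strand overlap Cacng2 (A730060N03Rik), Cacng4 (Gm11650) and Cacng8 (Gm44151), with the strand setting of the counting not given in the sources used here.

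Mouse 1 gave 163418203 unique molecular identifiers (UMIs) in 7889 barcodes and mouse 2 gave 204839993 in 12107. Filtering left 6185 and 9176 cells in 35 clusters, and 14 classes named from marker genes had at least 20 cells in each mouse. Every class is called "-like", since no outside reference was used. The results concern 3 neuron classes (glutamatergic-like, 277 and 1676 cells in mouse 1 and mouse 2; habenular-like, 148 and 372; GABAergic-like, 48 and 63), astrocyte-like cells (1030 and 362), and 3 oligodendrocyte-lineage classes (precursor-like, 144 and 966; committed precursor-like, 46 and 145; mature oligodendrocyte-like, 1819 and 2861). A further 53 and 395 neurons could not be placed in a neuron class by the markers. They form 1 of the 14 classes and were left out of the comparisons. The 10 genes and the other AMPA receptor genes were kept out of the genes used for clustering. Class sums held between 1789730 and 76622120 UMIs. Microglia-like and endothelial-like cells served as background, that is as the level that RNA free in the suspension or misassigned cells could give.

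Levels are given as CPM, the UMIs of a gene scaled to the total UMIs of its class, in mouse 1 and mouse 2, in that order. CPM compares 1 gene between classes. It is no safe ranking of genes against each other, because a longer gene may offer more places to be counted.

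**Figure D1:**
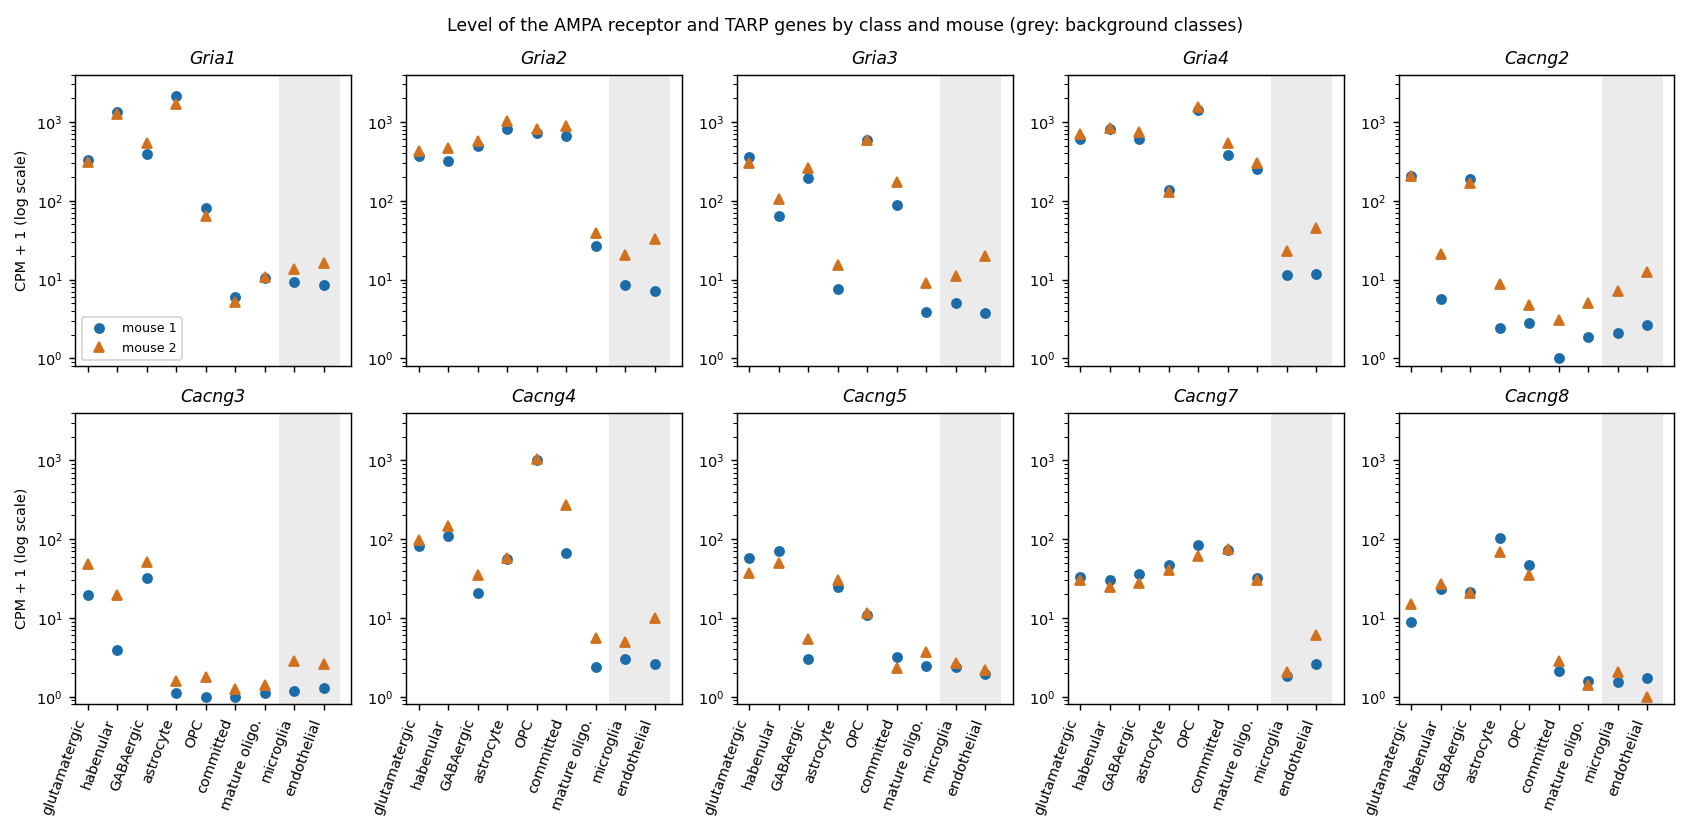
CPM plus 1 (log axis) of each of the 10 genes in 7 classes and, on grey, in 2 background classes; circles are mouse 1 and triangles mouse 2. Gria1 peaks in astrocyte-like cells at 2145 and 1676 CPM, while Cacng4 peaks in oligodendrocyte precursor-like cells at 1020 and 1041 CPM.

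Among the pore-forming subunits, Gria1 was highest in astrocyte-like cells and nearly absent from the oligodendrocyte lineage beyond the precursors. Its level was 2145 and 1676 CPM in astrocyte-like cells, 1338 and 1252 in habenular-like neurons, 386 and 539 in GABAergic-like neurons and 331 and 306 in glutamatergic-like neurons. The 2 mice of each of these classes did not overlap with those of the next class in this order. That order holds for whole classes. Within the habenular-like class, the cluster led by D130079A08Rik had 2325 and 1842 CPM, overlapping astrocyte-like cells, and the cluster led by Gm5741 had 848 and 1049. In precursor-like cells it was 79.1 and 63.5 CPM, and in committed precursor-like cells 5.03 and 4.19. Mature oligodendrocyte-like cells had 9.41 and 9.75 CPM, within the range of the background, which was 7.49 and 15.03 in endothelial-like and 8.42 and 12.7 in microglia-like cells.

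Gria2 was the most evenly spread of the pore-forming subunits across neurons, astrocytes and precursors. It was at 822 and 1040 CPM in astrocyte-like, 730 and 818 in precursor-like and 655 and 884 in committed precursor-like cells. The committed precursor-like values overlapped those of both other classes. GABAergic-like neurons had 500 and 578 CPM, glutamatergic-like 367 and 427 and habenular-like 322 and 464. The last 2 overlapped, and every value of the 3 neuron classes was below every value of the 3 glial classes just named. The neurons without a class, at 646 and 772 CPM, overlapped precursor-like and committed precursor-like cells. Mature oligodendrocyte-like cells had 25.7 and 38.1 CPM, against 6.10 and 31.6 in endothelial-like cells.

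Gria3 was at the background in 2 of the 7 classes and well above it in the other five. Precursor-like cells had 590 and 583 CPM and glutamatergic-like neurons 359 and 299, followed by GABAergic-like neurons at 191 and 258 CPM, and these 3 classes did not overlap. Committed precursor-like cells (87.7 and 173 CPM) overlapped habenular-like neurons (63.7 and 104). Astrocyte-like cells, at 6.69 and 14.3 CPM, and mature oligodendrocyte-like cells, at 2.83 and 7.96, lay within the background, which was 2.77 and 19.0 CPM in endothelial-like cells. Outside the neural classes, fibroblast-like cells had 116 and 148 CPM, from 34 and 66 UMIs.

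Gria4 was found in all 7 classes. Precursor-like cells had the highest level, 1409 and 1555 CPM, followed by habenular-like neurons at 810 and 847. GABAergic-like (609 and 737) and glutamatergic-like neurons (610 and 695) overlapped. The level fell along the oligodendrocyte lineage to 379 and 545 CPM in committed precursor-like and 253 and 304 in mature oligodendrocyte-like cells. Astrocyte-like cells had 134 and 128 CPM, still above the 10.8 and 44.3 CPM of endothelial-like cells.

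The make-up of the pore-forming pool was then expressed as each gene's percentage of the UMIs of Gria1 to Gria4 together, with the same percentage after each count was divided by the length of the gene in kilobases. Length here is the genomic span, introns included. Whether intron reads were counted was not given, so the share per kilobase is a second scale and not a known correction. In glutamatergic-like neurons Gria2 made up 22.0% of the UMIs in mouse 1 and 24.7% in mouse 2, in habenular-like neurons 12.7% and 17.4%, and in GABAergic-like neurons 29.7% and 27.3%. Astrocyte-like cells had 26.4% and 36.4% and precursor-like cells 26.0% and 27.1%. Committed precursor-like cells stood highest, at 58.1% and 55.0%, and mature oligodendrocyte-like cells lowest, at 8.85% and 10.6%. The exact (Clopper-Pearson) 95% intervals, which cover counting error only, ran from 12.3% to 13.2% in habenular-like neurons of mouse 1 and from 17.0% to 17.9% in those of mouse 2. The mice thus differed by more than counting error in that class.

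**Figure D2:**
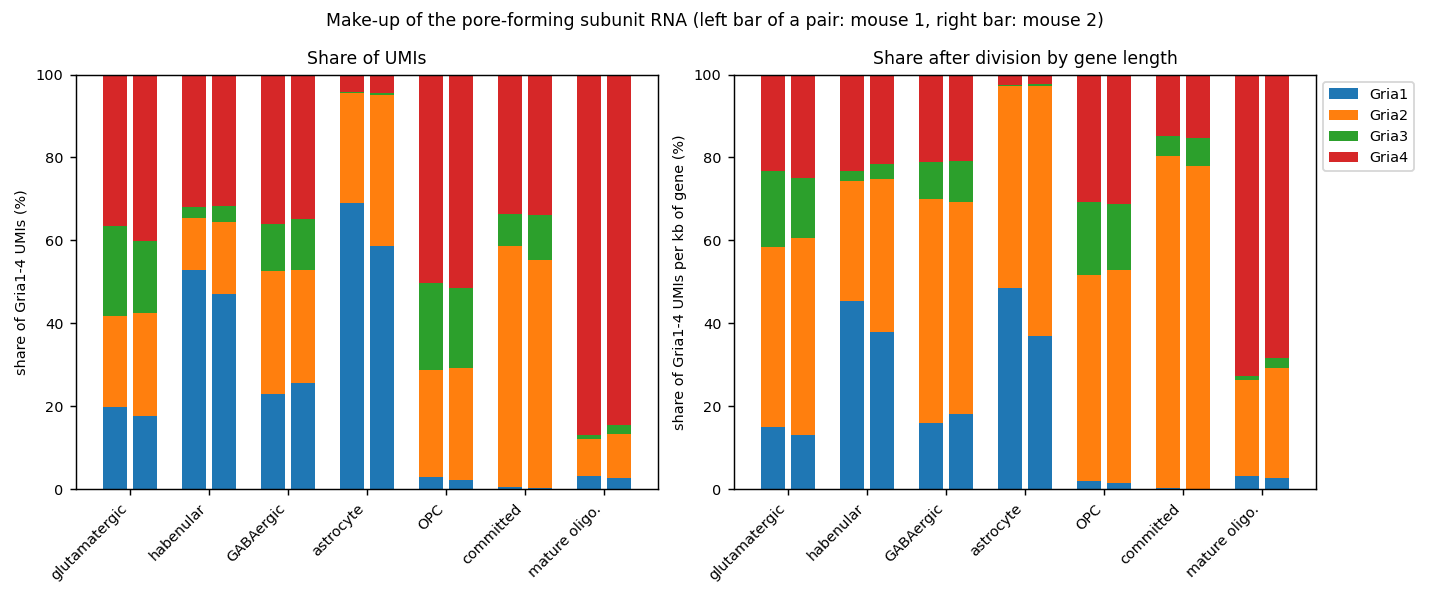
Share of Gria1, Gria2, Gria3 and Gria4 (%) in their summed UMIs (left panel) and after division by gene length (right panel), by class, with mouse 1 as the left and mouse 2 as the right bar of each pair. Gria4 takes 86.9% and 84.5% of the UMIs in mature oligodendrocyte-like cells, and Gria1 69.0% and 58.6% in astrocyte-like cells.

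Per kilobase of gene the Gria2 percentage was higher in every one of the 7 classes, since Gria2 is the shortest of the 4 genes at 121 kb against 278 kb to 378 kb. It was 45.5% ± 2.96 (SD, n = 2 mice) in glutamatergic-like, 32.9% ± 5.73 in habenular-like and 52.5% ± 2.13 in GABAergic-like neurons. The corresponding values were 54.5% ± 8.12 in astrocyte-like, 50.4% ± 1.13 in precursor-like, 79.0% ± 1.68 in committed precursor-like and 24.9% ± 2.56 in mature oligodendrocyte-like cells. On both scales committed precursor-like cells had the highest mean and mature oligodendrocyte-like cells the lowest. Which subunit led a class depended on the scale: in glutamatergic-like and GABAergic-like neurons and precursor-like cells Gria4 led by UMIs and Gria2 per kilobase, in astrocyte-like cells Gria1 led by UMIs and Gria2 per kilobase, whereas Gria4 led in mature oligodendrocyte-like cells, Gria2 in committed precursor-like cells and Gria1 in habenular-like neurons on both.

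The other subunits gave each class its own profile. By UMIs, habenular-like neurons held 52.8% and 46.9% Gria1 and 2.51% and 3.88% Gria3, whereas glutamatergic-like neurons held 19.9% and 17.7% Gria1 and 21.5% and 17.3% Gria3. GABAergic-like neurons were close to glutamatergic-like ones in Gria4 (36.1% and 34.9% against 36.6% and 40.2%) and lower in Gria3 (11.3% and 12.2%). Precursor-like cells held 50.2% and 51.5% Gria4, 21.0% and 19.3% Gria3 and 2.82% and 2.10% Gria1. In astrocyte-like cells Gria3 held 0.215% and 0.501% and Gria4 4.32% and 4.48%.

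For the Gria2 percentage, the 2 mice of one class did not overlap those of the other in 6 of the 8 comparisons made between classes, taking neurons and the oligodendrocyte lineage as the mean over their 3 classes. As a mean over classes it was lower in neurons (21.5% and 23.2%) than in astrocyte-like cells and than in the oligodendrocyte lineage (31.0% and 30.9%). This did not hold class by class. Mature oligodendrocyte-like cells (8.85% and 10.6%) were below every neuron class, and committed precursor-like cells raised the lineage mean. GABAergic-like neurons (29.7% and 27.3%) were above precursor-like cells (26.0% and 27.1%) and overlapped astrocyte-like cells (26.4% and 36.4%). It was higher in precursor-like than in mature oligodendrocyte-like cells, and among neurons the order was GABAergic-like, glutamatergic-like, habenular-like. Astrocyte-like cells overlapped with the oligodendrocyte lineage and with precursor-like cells. With 2 mice, the exact two-sided permutation test cannot go below p = 0.333, which is the value for each of the 6 (0.381 adjusted over the 16 share and ratio comparisons), so no such difference can pass a threshold. Subtracting the endothelial-like level of each gene lowered the Gria2 percentage of mature oligodendrocyte-like cells from a mean of 9.72% to 4.92% and left it the lowest of the 7 classes.

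Among the type I TARPs, Cacng2, which encodes stargazin, was high in glutamatergic-like and GABAergic-like neurons, at 204 and 203 CPM and at 190 and 167 CPM. Habenular-like neurons had 4.58 and 20.1 CPM, next to 1.66 and 11.5 in endothelial-like cells. The remaining 4 of the 7 classes had at most 7.85 CPM. Cacng3 was low everywhere and followed the same classes, with 18.7 and 47.2 CPM in glutamatergic-like and 31.0 and 49.8 in GABAergic-like neurons. Habenular-like neurons had 2.88 and 18.5 CPM, and neither astrocyte-like cells nor any of the 3 oligodendrocyte-lineage classes reached 1 CPM.

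Cacng4, the gene of gamma-4, was 1020 and 1041 CPM in precursor-like cells, above every other class. In committed precursor-like cells the mice lay far apart, at 65.4 and 268 CPM, and in mature oligodendrocyte-like cells it was 1.40 and 4.54, at the background (1.57 and 9.10 in endothelial-like cells). Habenular-like neurons had 107 and 144 CPM, glutamatergic-like 82.1 and 96.2, astrocyte-like 55.1 and 56.7 and GABAergic-like 19.8 and 34.2, with no overlap between neighbours in this order.

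Cacng8, the gene of gamma-8, was highest in astrocyte-like cells, at 103 and 67.6 CPM, followed by precursor-like cells at 45.6 and 33.8. Neurons had less, with 22.0 and 25.6 CPM in habenular-like, 20.2 and 19.7 in GABAergic-like and 7.92 and 14.1 in glutamatergic-like cells, and these 3 did not overlap. Committed precursor-like and mature oligodendrocyte-like cells had at most 1.83 CPM.

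The type II genes differed from each other. Cacng5 was highest in habenular-like (68.9 and 48.3 CPM) and glutamatergic-like neurons (56.9 and 36.6), which overlapped, with 23.5 and 28.9 in astrocyte-like cells and 9.83 and 10.7 in precursor-like cells. GABAergic-like neurons had 2.02 and 4.46 CPM, near the 0.925 and 1.19 of endothelial-like cells. Cacng7 was the flattest of the 10 genes, running from 23.6 CPM in habenular-like neurons to 84.4 CPM in precursor-like cells, and all 7 classes exceeded the 1.57 and 5.14 CPM of endothelial-like cells.

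**Figure D3:**
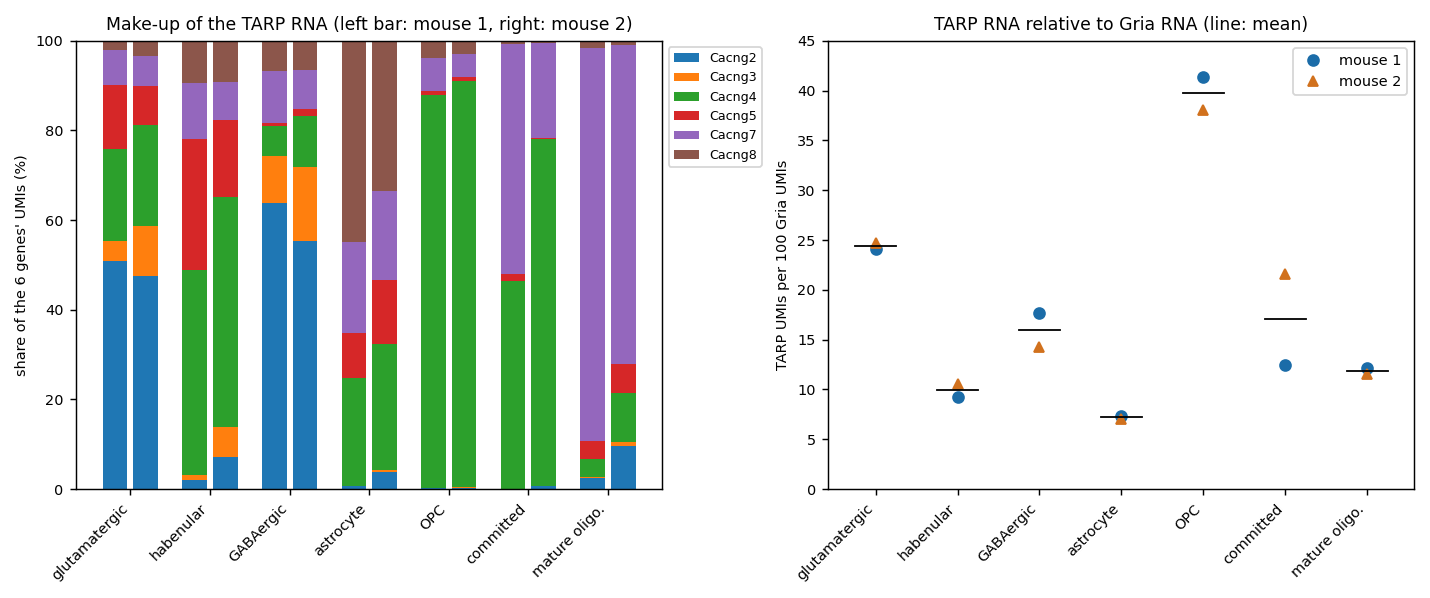
Left, share (%) of each TARP gene in the UMIs of the 6 genes, by class, with mouse 1 as the left bar and mouse 2 as the right bar; right, TARP UMIs per 100 Gria UMIs in each mouse, with the mean as a line. Cacng4 takes 87.8% and 90.5% of TARP UMIs in precursor-like cells, which also have the highest ratio, 41.4 and 38.1.

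The leading gene of the TARP pool differed between several of the classes. By UMIs, Cacng2 made up 50.8% and 47.6% of it in glutamatergic-like and 63.8% and 55.4% in GABAergic-like neurons, while Cacng4 made up 45.7% and 51.4% in habenular-like neurons and 87.8% and 90.5% in precursor-like cells. Cacng8 made up 44.9% and 33.5% in astrocyte-like cells and Cacng7 87.7% and 71.0% in mature oligodendrocyte-like cells. Per kilobase of gene the leaders were the same in GABAergic-like neurons (37.5% and 32.5%), habenular-like neurons (33.1% and 41.7%), precursor-like cells (78.5% and 83.3%), astrocyte-like cells (59.6% and 48.9%) and mature oligodendrocyte-like cells (90.9% and 81.4%). In glutamatergic-like neurons the per-kilobase shares of Cacng2 (27.7% and 26.8%), Cacng4 (23.0% and 26.2%) and Cacng5 (24.6% and 15.3%) were close to each other in mouse 1, whereas Cacng5 was lower in mouse 2. In committed precursor-like cells the mice disagreed on the leader on both scales, with Cacng7 at 51.2% and Cacng4 at 46.4% of UMIs in mouse 1 and at 21.1% and 77.3% in mouse 2.

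Relative to the pore-forming genes, TARP UMIs were most abundant in precursor-like cells, with 41.4 and 38.1 per 100 Gria UMIs. Glutamatergic-like neurons had 24.1 and 24.7, GABAergic-like neurons 17.7 and 14.3, habenular-like neurons 9.29 and 10.5 and astrocyte-like cells 7.38 and 7.06. Mature oligodendrocyte-like cells had 12.2 and 11.6 and committed precursor-like cells 12.5 and 21.5. The 2 mice did not overlap between the classes, or means over classes, in 8 of 8 comparisons. Each had an exact two-sided permutation p of 0.333, the smallest that this unpaired test allows with 2 mice. The mean of the oligodendrocyte lineage (22.0 and 23.7) was above that of neurons (17.0 and 16.5), but by UMIs only precursor-like cells of the lineage were above glutamatergic-like neurons. The ratio sets genes of different length against each other. Dividing UMIs by gene length moved all 14 shares and ratios of the 7 classes, so the orders of classes given here are for UMIs only and need not hold per kilobase. The astrocyte-like value was low with a high pore-forming total (3108 and 2858 CPM for the 4 Gria genes), and in mature oligodendrocyte-like cells the totals themselves were low (291 and 360 CPM Gria, 35.4 and 41.6 CPM TARP).

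Differences between classes were tested with edgeR's quasi-likelihood test on UMIs summed per mouse and class, with the mouse as a block, and calls needed an adjusted p (Benjamini-Hochberg, over all 16940 genes tested) below 0.05 together with a log2 fold change of 1 or more in size. All 10 genes passed the filter on low counts. Groups of classes were compared by the mean of their log2 levels, each class counting equally. Cell classes differ in many genes, so each count is read against the percentage of all genes called. The same cells served for naming and for testing the classes, and the spread rests on 2 animals.

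Between neurons and astrocyte-like cells, 7 of the 10 genes were called, where 42.8% of all genes were. Gria3 (log2 fold change 4.05 ± 0.49 SE, adjusted p 1e-06), Gria4 (2.21 ± 0.38, 5.18e-05), Cacng2 (4.30 ± 0.68, 2.94e-05) and Cacng3 (6.07 ± 0.70, 7.05e-07) were higher in neurons. Gria1 (-1.95 ± 0.26, 2.21e-06), Gria2 (-1.29 ± 0.28, 0.000476) and Cacng8 (-2.49 ± 0.28, 4.5e-07) were lower. Cacng4 (-0.02), Cacng5 (-0.51) and Cacng7 (-0.77) were not called. The calls concern the mean over the 3 neuron classes. Habenular-like neurons had Cacng2 at 4.58 and 20.1 CPM, overlapping astrocyte-like cells (1.41 and 7.85 CPM), and Cacng3 at 2.88 and 18.5 CPM. With predicted doublets kept, Cacng4 (1.07, adjusted p 0.030) and Cacng5 (1.11, 0.0091) were called higher in neurons, but the neuron mean then held glutamatergic-like and habenular-like cells only, as no GABAergic-like class was left. The median absolute log2 fold change was 2.08 over the 10 genes and 1.01 over all genes. Gria2 was not called when cells were put in classes by markers alone.

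Between neurons and the oligodendrocyte lineage, 7 of 10 genes were called against 36.4% of all genes. Gria1 (5.16 ± 0.25, adjusted p 1.02e-12), Gria3, Cacng2, Cacng3, Cacng5 (2.53 ± 0.31) and Cacng8 (2.32 ± 0.28) were higher in neurons and Cacng7 was lower (-1.04 ± 0.17, adjusted p 2.17e-05). Gria2, Gria4 and Cacng4 had log2 fold changes of 0.57, 0.17 and -0.31 and were not called, and in the lineage these 3 genes were high in precursor-like and low in mature cells. The calls concern means over classes, and several did not hold class by class. Cacng7 in mature oligodendrocyte-like cells (31.1 and 29.5 CPM) overlapped glutamatergic-like neurons (31.9 and 29.2 CPM). Cacng5 in GABAergic-like neurons (2.02 and 4.46 CPM) was below precursor-like cells (9.83 and 10.7 CPM). Cacng2 was low in habenular-like neurons (4.58 and 20.1 CPM). Precursor-like cells alone had more Gria3 (590 and 583 CPM) and Cacng8 (45.6 and 33.8 CPM) than any neuron class compared. In size, the median log2 fold change was 1.77 over the 10 genes and 0.79 over all genes. Cacng7, close to the limit of the call, was lost under 4 of 11 alternatives, and Gria3 (1.22 ± 0.26) was lost with the mitochondrial limit at 5% and without the clusters poor in ribosomal protein RNA. With doublets kept, and so without GABAergic-like cells, Cacng5 was at 4.10.

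Between astrocyte-like cells and the oligodendrocyte lineage, 6 of 10 genes were called against 33.8% of all genes. Gria1 was the most different (7.11 ± 0.29, adjusted p 1.74e-13), and Gria2 (1.86 ± 0.27), Cacng5 (3.04 ± 0.32) and Cacng8 (4.80 ± 0.31) were also higher in astrocyte-like cells. Gria3 (-2.84 ± 0.46) and Gria4 (-2.03 ± 0.38) were lower, Gria4 not being called with classes from markers alone. The Gria2 call concerns the mean over the lineage, in which mature cells had 25.7 and 38.1 CPM. Astrocyte-like cells (822 and 1040 CPM) overlapped committed precursor-like cells (655 and 884) and were just above precursor-like cells (730 and 818). The Gria3 call also concerns the mean over the lineage. Astrocyte-like cells (6.69 and 14.3 CPM of Gria3) were not below mature cells (2.83 and 7.96 CPM), and both lay within the background. In absolute terms, the log2 fold changes had a median of 1.95 over the 10 genes and 0.82 over all genes.

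Set directly against astrocyte-like cells, precursor-like cells differed in 6 of 10 genes, where 27.9% of all genes were called. Gria3 (5.79 ± 0.56, adjusted p 2.05e-07), Gria4 (3.28 ± 0.44, 6.75e-06) and Cacng4 (3.997 ± 0.53, 7.99e-06) were higher in precursor-like cells. Gria1 (-4.94 ± 0.41, 1.44e-08), Cacng5 (-1.51 ± 0.39, 0.00502) and Cacng8 (-1.31 ± 0.38, 0.0106) were lower. Gria2, at -0.43 ± 0.36, was not called. The median size of the log2 fold change was 1.41 over the 10 genes and 0.71 over all genes, and all 6 calls held under each of 11 alternatives. The cells differed in RNA make-up as well: Malat1 took 7.58% and 7.88% of UMIs in astrocyte-like cells against 2.39% and 2.87% in precursor-like cells, and neuron markers summed to 114 and 277 CPM against 699 and 802 CPM. Their part in the differences was not tested. For Cacng2, a neuronal gene, precursor-like cells had 1.79 and 3.69 CPM, no more than the background.

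**Figure D4:**
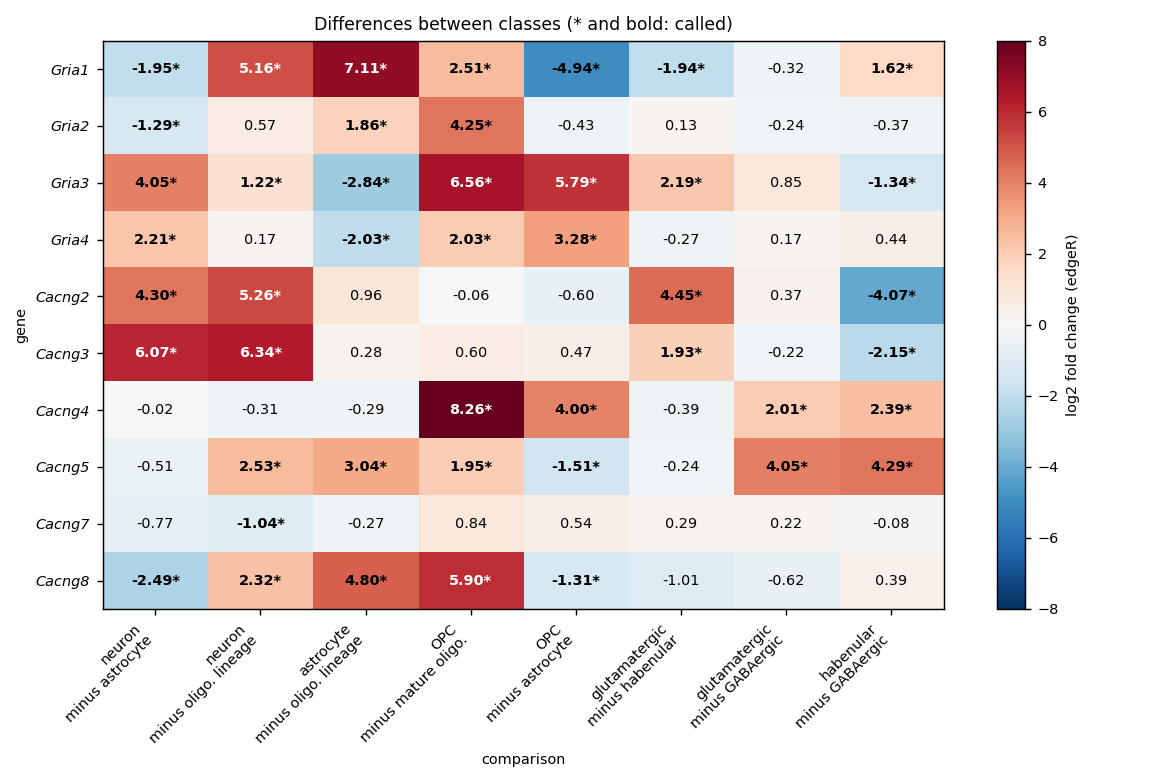
Log2 fold change (edgeR) of each gene (rows) in each comparison (columns), with the first class minus the second; a star and bold print mark called genes. The comparison of precursor-like with mature oligodendrocyte-like cells holds 7 calls, all higher in precursor-like cells, with Cacng4 at 8.26.

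Along the oligodendrocyte lineage, 7 of 10 genes were higher in precursor-like than in mature oligodendrocyte-like cells and 0 were called lower, where 22.4% of all genes were called higher, 13.9% lower and 36.3% in either direction. None of the 10 was lower at an unadjusted p below 0.05 in edgeR, or by DESeq2's test, either. The 4 Gria genes all fell towards the mature cells: Gria3 differed by 6.56 ± 0.57 on the log2 scale (adjusted p 2.35e-08), Gria2 by 4.25 ± 0.41 (4.6e-08), Gria1 by 2.51 ± 0.37 (1.16e-05) and Gria4 by 2.03 ± 0.42 (0.000432). In mature cells Gria1 (9.41 and 9.75 CPM) and Gria3 (2.83 and 7.96 CPM) lay within the background, and Gria2 overlapped it. The sizes for these genes are therefore limited by the background and give no safe ranking of the falls. Cacng4 (8.26 ± 0.65, adjusted p 6.72e-09), Cacng8 (5.90 ± 0.47, 1.06e-08) and Cacng5 (1.95 ± 0.40, 0.00042) were higher in precursor-like cells too. Cacng7 was at 0.84 ± 0.28 (adjusted p 0.0198), short of the fold limit. Gria4 was not called with classes from markers alone (2.13, adjusted p 0.0537). Cacng2 and Cacng3 stood at -0.06 and 0.60 with neither class above the background. The median log2 fold change was 2.27 over the 10 genes and 0.02 over all genes. Scaling by DESeq2's size factors moved the median of all genes by 0.16 in this comparison, and Cacng7 passed the fold limit there. Committed precursor-like cells kept Gria2 at the level of precursor-like cells while their Gria3, Gria4, Cacng4 and Cacng8 were below it in each mouse, a difference that was not tested.

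Among neurons, 4 of 10 genes were called between glutamatergic-like and habenular-like cells, where 20.3% of all genes were. Gria3 (2.19 ± 0.47, adjusted p 0.00155), Cacng2 (4.45 ± 0.67, 6.78e-05) and Cacng3 (1.93 ± 0.47, 0.00463) were higher in glutamatergic-like and Gria1 (-1.94 ± 0.36, 0.000335) in habenular-like neurons. Gria2 (0.13 ± 0.36) and Gria4 (-0.27 ± 0.40) were not called. The median absolute log2 fold change was 0.70 over the 10 genes and 0.53 over all genes. Gria1 was not called with classes from markers alone, and Cacng3 neither without the mouse block nor with the looser cell filter. That filter left Cacng2 called, at 2.54.

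Between glutamatergic-like and GABAergic-like neurons, 2 of 10 genes were called against 10.1% of all genes, both auxiliary and both higher in glutamatergic-like neurons: Cacng5 (4.05 ± 0.48, adjusted p 9.64e-06) and Cacng4 (2.01 ± 0.52, 0.0135). Of the Gria genes, 0 were called by edgeR, 0 had an unadjusted p below 0.05 and 0 were called by DESeq2, the largest difference being Gria3 at 0.85 ± 0.45 (adjusted p 0.272). In size, the median log2 fold change was 0.35 over the 10 genes and 0.45 over all genes. Cacng4 was not called without the mouse block or with classes from markers alone. The GABAergic-like class is small, and its other markers differed between mice, with haemoglobin markers at 8606 and 30.8 CPM and mature oligodendrocyte markers at 512 and 3008 CPM. Their part in the values was not tested.

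Habenular-like and GABAergic-like neurons differed in 6 of 10 genes, where 14.9% of all genes were called. Gria1 (1.62 ± 0.36, adjusted p 0.00277), Cacng4 (2.39 ± 0.52, 0.00296) and Cacng5 (4.29 ± 0.48, 2.55e-06) were higher in habenular-like neurons. Cacng2 (-4.07 ± 0.67, 0.000273), Cacng3 (-2.15 ± 0.49, 0.00436) and Gria3 (-1.34 ± 0.46, 0.0493) were lower. In absolute terms, the log2 fold changes had a median of 1.48 over the 10 genes and 0.52 over all genes. Gria3 kept the call under 4 of 10 alternatives and Gria1 under 7, while Cacng2 and Cacng5 kept it under all 10. Cacng4 was not called with classes from markers alone (2.05, adjusted p 0.0671), and Cacng3 neither with the looser cell filter (-1.02, 0.157) nor without the mouse block (-1.78, 0.234). Cacng3 also differed between the animals, at -1.31 without mouse 1 and -3.23 without mouse 2. Cacng2 was at -2.09 with the looser filter, and Gria1 at 0.78 with the mitochondrial limit at 5%.

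Within the glutamatergic-like class the pore-forming make-up was not uniform. The cluster led by Ctxn3 and Pdyn (68 and 70 cells) held 45.9% and 38.5% Gria1 and 3.83% and 6.45% Gria3. The cluster led by Tnnt1 and Prkcd (115 and 275 cells) held 10.7% and 14.5% Gria1 and 29.9% and 25.6% Gria3. The first thus lay near the habenular-like clusters in both percentages (48.6% and 48.9% Gria1 in the one led by Gm5741 and Tac2), although its Cacng2, at 218 and 220 CPM, was that of glutamatergic-like neurons and not of habenular-like ones (5.48 and 18.4 CPM).

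**Figure D5:**
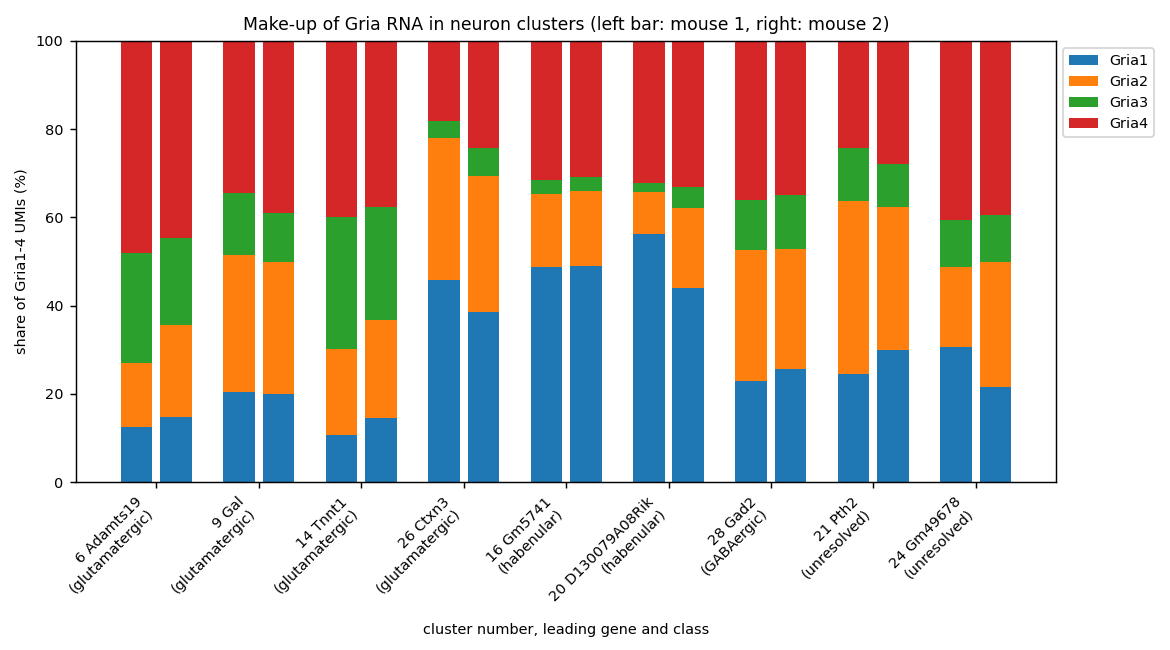
Share (%) of Gria1 to Gria4 in their summed UMIs in each neuron cluster, named by number, leading gene and class, with mouse 1 as the left and mouse 2 as the right bar. Gria1 ranges from 10.7% and 14.5% in the Tnnt1-led cluster to 45.9% and 38.5% in the Ctxn3-led cluster of the same class.

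Gria2 made up 31.0% and 29.8% of the Gria UMIs in the cluster led by Gal and C1ql3 and 32.0% and 30.8% in the Ctxn3-led one, against 19.5% and 22.2% in the Tnnt1-led cluster. The auxiliary genes varied too: Cacng5 was 90.9 and 74.9 CPM and Cacng4 102 and 139 CPM in the Tnnt1-led cluster, and 4.12 and 4.46 CPM and 17.8 and 32.2 CPM in the Ctxn3-led one. Cacng2 stayed between 181 and 220 CPM in all 4 glutamatergic-like clusters. These clusters were set by the data, so the values are a description without a test.

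A further glutamatergic-like cluster, led by Adamts19 (69 and 729 cells), had the highest Gria4 of the class, 1136 and 1141 CPM, with ribosomal protein RNA at a median of 0.150% and 0.183% of UMIs. The habenular-like cluster led by D130079A08Rik showed the same combination, with Gria4 at 1334 and 1382 CPM and ribosomal protein RNA at 0.163% and 0.176%. The other clusters of the 3 neuron classes had medians between 1.70% and 4.81%. In all, 5 clusters had medians below 0.5% in each mouse. They included the astrocyte-like cluster led by Gli2 (0.401% and 0.371%), with Gria1 at 2982 and 2372 CPM against 1849 and 1628 CPM in the Gja1-led one. Among neurons without a class, the poor cluster led by Gm49678 had Gria4 at 1495 and 1374 CPM. Leaving out the clusters poor in ribosomal protein RNA turned the difference in Gria4 between glutamatergic-like and GABAergic-like neurons from 0.17 to -0.17 on the log2 scale, uncalled in both cases, and raised the mean TARP ratio of glutamatergic-like neurons from 24.4 to 27.8.

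For detection cell by cell, cells with at least 5000 UMIs were thinned to 5000 UMIs, and shallower cells were left out. Gria2 was then found in 92.4% and 95.7% of astrocyte-like cells, 94.3% and 96.6% of precursor-like cells and 82.1% and 85.7% of glutamatergic-like neurons. In mature oligodendrocyte-like cells it was found in 9.75% and 16.7%, against 2.90% and 11.5% of endothelial-like cells. The median depth of all cells of these 2 classes before thinning was 24736 and 13718 UMIs and 12922 and 5008 UMIs. Many endothelial-like cells of mouse 2 were therefore left out. Without thinning, and over all cells, the shares were 34.6% and 32.4% against 10.0% and 15.5%. Gria4 was found in 56.95% and 64.1% of mature oligodendrocyte-like cells, against 6.31% and 18.8% of endothelial-like ones. Cacng4 was found in 99.3% and 99.2% of precursor-like cells and in 0.609% and 2.51% of mature ones, the latter at or below the 0.853% and 4.27% of endothelial-like cells. Cacng2 was found in 58.0% and 60.2% of glutamatergic-like neurons and in 1.35% and 6.78% of habenular-like ones. Gria1 was found in 100% and 98.6% of habenular-like neurons.

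The other genes of the AMPA receptor system were followed in a fixed list of 19 further auxiliary or interacting proteins, 11 scaffold and trafficking genes and 3 RNA editing genes, all of which passed the filter. Of the auxiliary genes, 10 were higher and 3 lower in neurons than in astrocyte-like cells, where 42.8% of all genes were called, with a median log2 fold change of 3.71 against -0.01 for all genes. Cnih2, a cornichon that slows channel closing, was at 88.6 and 51.8 CPM over the neuron classes and 1.67 and 2.52 CPM in astrocyte-like cells (4.98 ± 0.34, adjusted p 1.25e-10). Against the oligodendrocyte lineage, 13 were higher and 1 lower in neurons, where 36.4% of all genes were called, with a median of 1.81 against 0.05.

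Precursor-like cells carried several of these genes at levels above mature cells. Of the 19, 11 were higher and 1 lower, where 22.4% of all genes were higher and 13.9% lower, with a median log2 fold change of 2.62 against 0.02 for all genes. Shisa6, whose protein keeps receptors at the synapse, was at 138 and 118 CPM in precursor-like and 1.06 and 3.89 CPM in mature cells. Shisa9, the gene of CKAMP44, was at 205 and 160 against 2.36 and 8.90 CPM, and Olfm2 at 391 and 398 against 2.08 and 4.13 CPM. Shisa9 was also high in astrocyte-like cells, at 357 and 306 CPM. There Syndig1, whose protein binds AMPA receptors, was at 70.5 and 75.2 CPM and was called higher than in the oligodendrocyte lineage (4.22 ± 0.37, adjusted p 2.99e-08), a comparison in which 4 auxiliary genes were higher and 6 lower in astrocyte-like cells and 33.8% of all genes were called. Against astrocyte-like cells, 9 of the 19 were higher and 2 lower in precursor-like cells, where 27.9% of all genes were called, with a median of 1.40 against -0.01.

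Habenular-like neurons, where Cacng2 was low, also had little of Syndig1, Shisa9 and Shisa6. Syndig1 was at 109 and 132 CPM in glutamatergic-like and 0.523 and 0.574 CPM in habenular-like neurons (7.86 ± 0.66, adjusted p 8.69e-08), and the difference was 3.62 with the looser cell filter. Shisa9 was at 473 and 690 against 10.5 and 47.3 CPM, and Shisa6 at 290 and 209 against 11.4 and 42.0 CPM. Low Shisa6 was not particular to habenular-like neurons, as GABAergic-like neurons, where Cacng2 was high, had 4.03 and 18.2 CPM. The neuronal pentraxin gene Nptx1, whose product gathers AMPA receptors at synapses, went the other way, at 13.5 and 2.32 against 189 and 100 CPM (-4.20 ± 0.59, adjusted p 2.44e-05), and its difference was -6.86 with doublets kept. In all, 4 auxiliary genes were higher and 2 lower in glutamatergic-like than in habenular-like neurons, where 20.3% of all genes were called. Against GABAergic-like neurons, 4 were higher and 1 lower in glutamatergic-like neurons, where 10.1% of all genes were called, and Shisa6 (4.97 ± 0.76) was among the higher. In habenular-like neurons 3 were higher and 4 lower than in GABAergic-like ones, where 14.9% of all genes were called, and Nptx2 (5.56 ± 0.42) was among the higher.

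Of the 11 scaffold and trafficking genes, 6 were higher in neurons than in astrocyte-like cells, where 42.8% of all genes were called. In precursor-like cells 3 of the 11 were higher than in astrocyte-like cells, which is near the 27.9% of all genes called. Nsf, the ATPase that binds GluA2, was at 627 and 597 CPM over the neuron classes and 96.5 and 114 CPM in astrocyte-like cells, with habenular-like neurons (263 and 238) below glutamatergic-like ones (809 and 793; 1.76 ± 0.22, adjusted p 4.5e-06). Against the oligodendrocyte lineage, 6 of the 11 were higher and 1 lower in neurons, where 36.4% of all genes were called. The gene called lower was Dlg1, the gene of SAP97, with 300 and 359 CPM in the lineage and 74.6 and 127 CPM in neurons (-1.86 ± 0.14, adjusted p 4.51e-10). Epb41l1, the gene of protein 4.1N, was lower in glutamatergic-like (38.5 and 50.2 CPM) than in habenular-like neurons (237 and 217 CPM; -2.28 ± 0.26, adjusted p 1.6e-06).

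All 3 RNA editing genes were higher in neurons than in astrocyte-like cells, where 42.8% of all genes were called. Adarb1, the gene of the enzyme that edits the Q/R site of Gria2, was at 656 and 484 CPM in glutamatergic-like, 226 and 157 in GABAergic-like and 110 and 68.3 in habenular-like neurons, 3 classes without overlap. Glutamatergic-like neurons were called higher than habenular-like (2.76 ± 0.31, adjusted p 1.12e-06) and than GABAergic-like neurons (1.78 ± 0.30, 0.000387), the latter not being called with classes from markers alone (adjusted p 0.0694). Adarb1 was at 14.4 and 19.1 CPM in astrocyte-like, 48.3 and 38.2 in precursor-like and 6.15 and 11.8 in committed precursor-like cells, next to 30.7 and 43.9 in endothelial-like cells. These 3 glial classes, all above the 3 neuron classes in Gria2, thus had less Adarb1 RNA than any of them. Adarb2, whose product is not known to edit, was at 2005 and 1993 CPM in precursor-like cells and 52.3 and 60.0 in mature oligodendrocyte-like cells (4.78 ± 0.87, adjusted p 0.000149).

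The genes whose pattern over the 14 classes was most like each member's were listed for the 8 members that reached 50 CPM in a class in each mouse, by Pearson's correlation of log2(CPM + 1), taking the lower of the mice. For Gria1 this was Gabra2 (0.97), for Gria2 Dlgap1 (0.97), for Gria3 Kcnj3 (0.92) and for Gria4 Ralyl (0.98), with Dlg2, a scaffold of the fixed list, next (0.96). For Cacng2 it was Vwc2l (0.96), for Cacng4 Kcnd3 (0.88), for Cacng7 Map2 (0.92) and for Cacng8 Disp3 (0.95). The classes share libraries and differ in depth, and 6 of the 24 genes named remained when Spearman's correlation was used.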

How the data were processed

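Single-cell RNA was measured in thalamus of 2 mice, 1 library each. Libraries were made with a 10x 3′ kit, per the labels, and Cell Ranger 7.1.0 and mm10 are named, with Seurat 5 without a role, per the submitters' processing notes. The deposited values are raw counts of UMIs, by gene and barcode. How intron reads and strand were treated was not given in the sources used here.

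Cells had at least 500 genes, 1000 UMIs and at most 15% mitochondrial UMIs. Scrublet removed 181 and 262 doublets (2.84% and 2.78%). The libraries shared 36 barcodes, of which 15 were among kept cells and 2 in the same class. Counts were scaled to 10000 per cell, 2000 variable genes, 30 components and 15 neighbours were used, and Leiden resolution was 1 (scanpy 1.11.5). A cluster needed 3 markers of at least 50 CPM and 4 times the median cluster, and clusters with leading genes of another class stayed unnamed (11.1% and 8.40% of cells). UMIs were summed per mouse and class (28 sums) and tested with edgeR 4.0.16 (TMM, filterByExpr, robust quasi-likelihood, class plus mouse, 13 residual degrees of freedom). Classes of 1 mouse come from the same animal, hence the block, and their deviations from the class means correlated in 90 of 91 class pairs above 0.1 (median 0.28). The steps were tested on simulated data.

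Members and lists were chosen with earlier results of these data known. From the other AMPA receptor genes, text names come from up to 4 called genes per list and comparison with the largest change, if both mice moved alike and the higher side reached 50 CPM. Alternatives were DESeq2 1.42.0, other filters, doublets kept, another resolution, classes from markers alone, gene length, background subtraction and each mouse left out. Those on ribosomal protein RNA and on a cluster led by Klk6, unnamed and kept out of the mature class, were chosen after seeing the data.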

Additional observations from a re-analysis of the deposited data

How the results depend on the processing

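Of 80 pairs of member and comparison, 45 were called, all 45 with the same sign in each mouse, and 33 of these were called under every alternative that gave a test. The number of all genes called stayed within 1.5 times under the alternatives, except that habenular-like against GABAergic-like neurons gave 1126 instead of 2521 with the looser cell filter. The cause was not tested.

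Without the mouse block, that is without pairing the classes by animal, 4 calls were lost: Cacng3 between glutamatergic-like and habenular-like neurons (1.69, adjusted p 0.216), Cacng4 between glutamatergic-like and GABAergic-like neurons (1.92, 0.108), and Gria3 (-1.30, 0.233) and Cacng3 (-1.78, 0.234) between habenular-like and GABAergic-like neurons. It gave 5393 to 6981 calls over all genes in comparisons led by neurons or astrocyte-like cells against glia, 4254 and 5790 for precursor-like cells, and 2825, 1315 and 1986 between neuron classes.

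Sign changes were limited to pairs that were not called in the main result, and of these Cacng4 and Cacng5 between neurons and astrocyte-like cells became calls with doublets kept. For Cacng4 between neurons and astrocyte-like cells the log2 fold change was 0.021 with DESeq2's size factors, 0.023 with its test, 0.071 without the block, 1.07 with doublets kept and 0.00078 without the clusters poor in ribosomal protein RNA; for Cacng2 between precursor-like and mature cells it was 0.081, 0.15 and 0.038 under the first 3, 0.049 with the mitochondrial limit at 5% and 0.11 with classes from markers alone. With doublets kept, Cacng5 was 1.11 between neurons and astrocyte-like cells and 0.049 between glutamatergic-like and habenular-like neurons, Cacng4 was 0.60 between neurons and the oligodendrocyte lineage, and Cacng3 was -0.041 between precursor-like and astrocyte-like cells. Cacng3 between astrocyte-like cells and the lineage was -0.36 without the block, -0.13 with the 5% limit and -0.58 with classes from markers alone. With the 5% limit Gria4 was -0.098 between neurons and the lineage, 0.19 between glutamatergic-like and habenular-like and -0.15 between habenular-like and GABAergic-like neurons, and Cacng7 was -0.014 between glutamatergic-like and GABAergic-like neurons. Without the clusters poor in ribosomal protein RNA these were -0.15 (Gria4, neurons and the lineage), -0.17 (Gria4, glutamatergic-like and GABAergic-like), -0.037 (Gria4, habenular-like and GABAergic-like) and -0.052 (Cacng7). With the looser cell filter, between glutamatergic-like and habenular-like neurons, Gria2 was -0.082, Gria4 0.16, Cacng4 0.22 and Cacng5 0.45. With classes from markers alone, Gria4 was -0.17 and Cacng7 -0.028 between glutamatergic-like and GABAergic-like neurons and Cacng8 -0.099 between habenular-like and GABAergic-like neurons, and with no gene filter Cacng7 was 0.033 there.

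Of the 24 most alike genes, 6 remained with Spearman's correlation. With doublets kept, no GABAergic-like class was left, so its comparisons and the detection per cell could not be computed, and the neuron mean was over the other two classes. Leaving out 1 mouse leaves no test, so no counts of calls were made there. The GABAergic-like class rests on 48 and 63 cells, and low values in mature oligodendrocyte-like cells cannot be told apart from background.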
